A study of Rattus norvegicus with 16 samples.

Results

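The rat mitochondrial genome is a small circular DNA that encodes 13 proteins, 2 ribosomal RNAs and 22 transfer RNAs. All features of the gene table that lie on the mitochondrial chromosome were taken, which gave 37 of 23552 listed features. All 13 proteins are core subunits of the respiratory chain or of ATP synthase in the inner mitochondrial membrane, where they are assembled with subunits encoded in the nucleus. The mitochondrial genome is transcribed from both strands as long precursors, and these are cut into separate RNAs largely at the tRNAs that lie between the other genes. Chondrocytes live in poorly supplied tissue and rely largely on glycolysis, and altered mitochondrial function has been described in osteoarthritic cartilage.

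Knee cartilage of rats, all labelled with an age of 10 weeks, was sequenced as 4 groups of 4 RNA libraries. The coacervate group was osteoarthritic cartilage of rats given a coacervate (a liquid phase that separates from a polymer solution) with cells and a drug. The HA group was osteoarthritic cartilage of rats given hyaluronic acid (HA), a polysaccharide of joint fluid and cartilage, with cells and a drug. The osteoarthritic group was cartilage labelled osteoarthritic with no such treatment, whose library names carry PBS, and the healthy group was cartilage labelled healthy, whose library names carry Sham. Both treated groups received cells and a drug that the labels do not name, so their comparisons with the osteoarthritic group cannot tell carrier, cells and drug apart. The way osteoarthritis was induced, the strain, the sex and the number of animals behind each library are not given in the sources used here. Where replicates do not come from separate animals, the p-values measure only the spread between these libraries, which may be technical.

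The libraries held 36988722 to 50725189 counts each. Of 12 cartilage markers, 11 were above 1 FPKM (fragments per kilobase of feature, scaled for sequencing depth, and so a level per length) in all 16 libraries; Sox9, a chondrocyte transcription factor, reached down to 0.54 FPKM. Genes of other tissues were abundant: haemoglobin chains took 9.57% to 20.6% of counts and 11 skeletal muscle genes 0.35% to 2.09%, so RNA of other cells is part of every library. Macrophage genes (8) took 0.473% to 0.655% of counts with coacervate, 0.743% to 0.946% with HA, 0.687% to 1.02% in osteoarthritic and 0.459% to 0.734% in healthy libraries. The highest of them by mean FPKM was Lyz2, with 4580, and the next was C1qa, with 121. Gene by gene, 3 of the 8 were above 0 and 5 below 0 on the log2 scale in osteoarthritic against healthy cartilage (median -0.00795). The higher mean share there thus does not stand for most of these genes. Without osteoarthritic replicates 2 and 3, described below, 4 were above 0 and 4 below 0 (median 0.0607). In that fit Cd68 passed as higher (log2 difference 0.69, edgeR adjusted p = 0.0475), where 1.05% of all genes did. In coacervate against HA, where the share was lower, 3 were above 0 and 5 below 0 (median -0.058). In such bulk RNA, fewer cells of a type and less RNA per cell cannot be told apart. In 2 libraries, replicates 2 and 3 of the osteoarthritic group, the RNA had another composition. Haemoglobin took 20.6% and 20% of their counts, against 9.57% to 15.6% elsewhere. Cytosolic ribosomal protein genes took 4.49% and 4.07%, against 2% to 2.93% elsewhere. The 12 cartilage markers took 0.205% and 0.259% of counts in these 2 libraries, and 0.629% and 0.573% in osteoarthritic replicates 1 and 4. Their share was 0.259% to 0.509% in healthy, 0.375% to 0.435% in coacervate and 0.431% to 0.616% in HA libraries. The medians of the mitochondrial classes in comparisons with the osteoarthritic group are therefore given with and without osteoarthritic replicates 2 and 3. Mean shares, counts of unadjusted p-values and most values of single genes are given over all libraries only.

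The 37 features lie almost end to end. Each had a neighbour at most 5 bases away or overlapping it, and the longest stretch between neighbours was 32 bases, between the tRNA features AY172581.18 and AY172581.10. On the + strand lie 12 protein genes, both rRNAs and 14 tRNAs; Mt-nd6 and 8 tRNAs lie on the - strand. Proteins are encoded by 204 to 1830 bases and tRNAs by 60 to 75 bases. Mt-atp8 and Mt-atp6 share 43 bases, Mt-nd4l and Mt-nd4 share 7, and Mt-nd5 and Mt-nd6 share 23 on opposite strands, so reads there can be split between them in a way not known here. The library kit marks strand, but the strand setting of the counting is not given in the sources used here; reads of a feature and of its antisense neighbour may therefore be mixed. The library was also selected for poly(A) RNA. Mature mitochondrial tRNAs carry no long poly(A) tail and are shorter than the fragments sequenced, so a count in a tRNA feature may come from an uncut precursor or a neighbouring RNA, and its FPKM is inflated by the short feature. The rRNAs carry short A tails at most, so poly(A) selection may sample them less than the mRNAs.

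The 13 protein genes took 4.16% to 5.33% of all counts in the coacervate group, 3.62% to 4.44% in the HA group, 2.42% to 4.27% in the osteoarthritic group and 4.18% to 6.07% in the healthy group. The mean share was 4.69% ± 0.598 (SD, n = 4) with coacervate, 4.06% ± 0.358 with HA, 3.39% ± 0.865 in osteoarthritic and 4.9% ± 0.82 in healthy cartilage. Within the osteoarthritic group, replicates 1 to 4 held 3.95%, 2.42%, 2.92% and 4.27%, so replicates 2 and 3 were the lowest of all 16 libraries and replicate 4 lay inside the healthy range. Healthy replicate 4, with 6.07%, was the highest library.

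The rRNA and tRNA features took far smaller shares. The 2 rRNAs held 0.108% ± 0.0131 of counts with coacervate, 0.114% ± 0.0366 with HA, 0.119% ± 0.0325 in osteoarthritic and 0.154% ± 0.0404 in healthy cartilage (SD, n = 4 each). The 22 tRNAs held 0.0133% ± 0.00218, 0.0109% ± 0.000622, 0.0101% ± 0.00162 and 0.0149% ± 0.00306 of counts in the coacervate, HA, osteoarthritic and healthy groups. In the osteoarthritic group the rRNA share did not follow the protein share: replicates 2 and 3, lowest in protein counts, held 0.121% and 0.165% rRNA, above the 0.0982% and 0.0938% of replicates 1 and 4. There were 49.9 and 56.4 rRNA counts per 1000 protein counts in replicates 2 and 3, against 17.8 to 35.7 in the other 14 libraries.

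**Figure D1:**
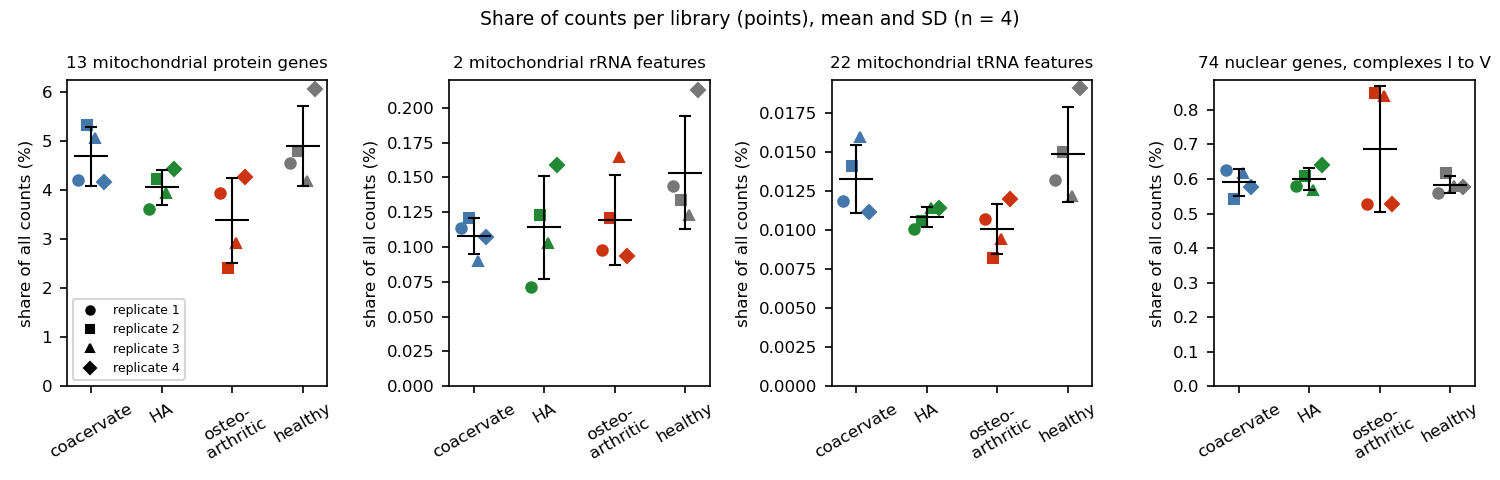
Share of all counts (%) taken by the mitochondrial protein, rRNA and tRNA features and by 74 nuclear genes of complexes I to V, with 1 point per library, marker shape for the replicate number, and the mean with SD (n = 4). Osteoarthritic replicates 2 and 3 are lowest in the protein panel (2.42% and 2.92%) and highest in the nuclear panel (0.848% and 0.84%).

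Complex IV, or cytochrome c oxidase, passes electrons to oxygen, and its 3 mitochondrial subunits form the catalytic core. Together with both ATP synthase genes they were the 5 highest of the 13 protein genes by FPKM in every library. Mt-co1, which holds the oxygen-reducing site, had 7292, 8934, 9108 and 7051 FPKM in the coacervate libraries, 6227, 7576, 6219 and 7849 FPKM in the HA libraries, 6581, 3764, 4593 and 7651 FPKM in the osteoarthritic libraries, and 7620, 8143, 7075 and 10362 FPKM in the healthy libraries. The osteoarthritic and healthy values overlapped through osteoarthritic replicate 4. Mt-co2, the subunit that takes electrons from cytochrome c, averaged 6610 ± 713 FPKM with coacervate, 6160 ± 716 with HA, 5060 ± 820 in osteoarthritic and 7350 ± 1430 in healthy cartilage (SD, n = 4). Its osteoarthritic values ended at 6100 FPKM and its healthy values began at 6230 FPKM. Mt-co3 averaged 6620 ± 510, 6000 ± 575, 4910 ± 1140 and 7040 ± 1280 FPKM in the same order of groups.

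Complex V, the ATP synthase, turns the proton gradient into ATP, and Mt-atp6 and Mt-atp8 are parts of its membrane sector. Mt-atp8 had 7577, 10307, 8757 and 7118 FPKM with coacervate, 6225, 8054, 7369 and 8383 FPKM with HA, 6949, 4204, 5172 and 6382 FPKM in osteoarthritic, and 8868, 8222, 7081 and 10853 FPKM in healthy libraries. All 4 osteoarthritic values lay below all 4 coacervate and all 4 healthy values. Mt-atp6, which helps form the proton path, averaged 6290 ± 828 FPKM with coacervate, 5340 ± 564 with HA, 4580 ± 1050 in osteoarthritic and 6590 ± 1250 in healthy cartilage (SD, n = 4).

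Mt-cyb, cytochrome b of complex III, was the sixth gene by FPKM in all 16 libraries. It had 2993, 3856, 3872 and 3200 FPKM with coacervate, 2945, 2834, 3125 and 2989 FPKM with HA, 3054, 1882, 2191 and 2776 FPKM in osteoarthritic, and 3391, 3505, 3255 and 4130 FPKM in healthy libraries. The osteoarthritic values did not reach the healthy range. Per normalised count, it varied least of the 13 genes, with a coefficient of variation of 16.3% over the 16 libraries.

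Complex I, NADH dehydrogenase, is where most electrons enter the chain, and its 7 mitochondrial subunits lie in the membrane arm. They ran over a wide range, from a mean of 2340 FPKM for Mt-nd1 to 530 FPKM for Mt-nd6 over the 16 libraries. Mt-nd1 was seventh in every library, with 2426, 3005, 2703 and 2290.2 FPKM in coacervate libraries, 2144, 2179.6, 2367 and 2178 in HA libraries, 2225, 1284, 1489 and 2335 in osteoarthritic libraries, and 2652, 2396, 2370.2 and 3421 in healthy libraries. Its osteoarthritic values lay below its healthy ones with no overlap. Mt-nd2 averaged 2140 ± 310 FPKM with coacervate, 1720 ± 195 with HA, 1480 ± 560 in osteoarthritic and 2150 ± 371 in healthy cartilage (SD, n = 4).

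Mt-nd4 and Mt-nd5 are proton-pumping subunits of this arm, as is Mt-nd2. In both and in Mt-nd4l, osteoarthritic replicates 2 and 3 lay far from replicates 1 and 4. Mt-nd5 had 610.3, 952, 898 and 592 FPKM with coacervate, 504, 548, 644 and 634 FPKM with HA, 734, 175, 267 and 815 FPKM in osteoarthritic, and 746, 770.04, 661 and 911 FPKM in healthy libraries. Replicates 2 and 3 were thus far below every other library, while replicates 1 and 4 lay within the healthy range. Mt-nd4l had 2146, 558, 824 and 1786 FPKM in osteoarthritic libraries, with the same replicates low. Mt-nd4, its overlapping neighbour, had 1061, 425, 547 and 1104 FPKM there.

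Mt-nd3 was not low in these libraries. It had 609, 618, 819 and 595 FPKM in osteoarthritic libraries 1 to 4, against 620, 838, 639 and 906 FPKM in the healthy ones, and 594 to 673 FPKM with coacervate and 560 to 725 FPKM with HA. The ratio of Mt-nd5 to Mt-nd3 FPKM was 0.284 and 0.326 in osteoarthritic replicates 2 and 3, against 0.863 to 1.43 in the other 14 libraries. Mt-nd6, the one protein gene on the - strand, averaged 577 ± 119 FPKM with coacervate, 462 ± 79.4 with HA, 454 ± 139 in osteoarthritic and 628 ± 123 in healthy cartilage (SD, n = 4). In human cells its mRNA lacks a poly(A) tail.

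**Figure D2:**
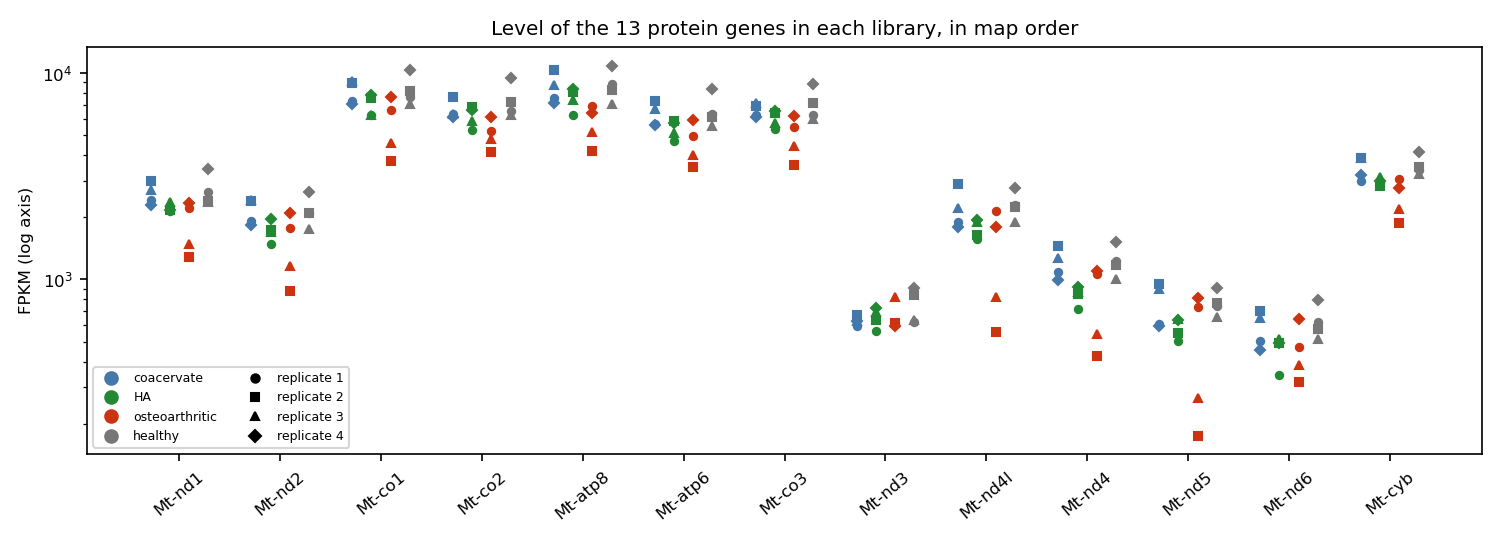
FPKM (log axis) of the 13 mitochondrial protein genes in map order, 1 point per library, coloured by group and with marker shape for the replicate number. Mt-nd5 reaches down to 175 and 267 FPKM in osteoarthritic replicates 2 and 3, while Mt-nd3 in the same libraries is at 618 and 819 FPKM.

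The order by mean FPKM was Mt-atp8 with 7590, Mt-co1 with 7250, Mt-co2 with 6290, Mt-co3 with 6140, Mt-atp6 with 5700, Mt-cyb with 3120, Mt-nd1 with 2340, Mt-nd4l with 1900, Mt-nd2 with 1870, Mt-nd4 with 1020, Mt-nd3 with 673, Mt-nd5 with 654 and Mt-nd6 with 530. Within the leading 5 the ranks changed between libraries. Ranks below Mt-nd1 changed too: Mt-nd4l was 8 to 10, Mt-nd2 8 to 9, Mt-nd4 10 to 11, Mt-nd3 9 to 13, Mt-nd5 11 to 13 and Mt-nd6 12 to 13. Where ranks overlap, the order by mean FPKM need not hold in every library. It did hold for Mt-nd4l, which had 1.31 to 2.19 times the FPKM of Mt-nd4 in the 16 libraries. As a share of protein counts, which is not per length, Mt-co1 was the leading gene with 30% ± 1.06 (SD over 16 libraries).

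Between osteoarthritic and healthy cartilage, 2 tRNA features fell, and no protein gene and no rRNA passed the test. Among the alternative fits, Mt-cyb passed with DESeq2 (adjusted p = 0.0278) and Mt-nd4l passed when osteoarthritic replicate 1 was left out. Of 14337 tested genes, 72 passed (adjusted p under 0.05, 0.502%) and 16 of them were lower in osteoarthritic cartilage (0.112%). Values were tested with edgeR's quasi-likelihood test on the deposited counts, in 1 fit of the 4 groups, with Benjamini-Hochberg adjustment over all tested genes. Of the 37 features, 35 passed the filter on low values. AY172581.6 and AY172581.8 did not, and AY172581.13 and AY172581.4 passed with a median of 3 counts a library.

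All 13 protein genes were below 0 on the log2 scale, with a median of -0.455 against 0.0149 for all tested genes, of which 47.9% were below 0. The fitted log2 differences reached from -0.74 for Mt-nd4l to -0.03 for Mt-nd3. With osteoarthritic replicates 2 and 3 left out they were -0.27 for Mt-nd4l, -0.36 for Mt-nd3 and -0.04 for Mt-nd5. That of Mt-atp8 was -0.52 ± 0.168 (SE, adjusted p = 0.186), that of Mt-cyb -0.42 ± 0.142 (adjusted p = 0.196), that of Mt-co1 -0.46 ± 0.196 (adjusted p = 0.246) and that of Mt-nd5 -0.59 ± 0.318 (adjusted p = 0.332). Of the 13, 10 had an unadjusted p under 0.05, where 17.8% of all genes did and 6.91% did with a lower value. For 4 of them (Mt-nd1, Mt-co2, Mt-atp8 and Mt-cyb) the osteoarthritic values of normalised CPM (counts scaled to library size and composition) lay below all healthy values, against 3.19% of all genes. These genes lie on the same precursors, so they are not independent observations. Without osteoarthritic replicates 2 and 3, all 13 were still below 0 and their median was -0.29. Without healthy replicate 4 as well, an alternative chosen after seeing the data, it was -0.15.

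The 2 rRNA features differed by -0.3 ± 0.211 (AY172581.9, SE, adjusted p = 0.45) and -0.21 ± 0.3 (AY172581.24, adjusted p = 0.73). AY172581.9 (bases 68 to 1025) had 405 ± 101 normalised CPM in osteoarthritic and 500 ± 133 in healthy cartilage, and AY172581.24 (bases 1094 to 2664) had 888 ± 365 and 1020 ± 328 (SD, n = 4 each). AY172581.24 had 601, 995, 1360 and 598 normalised CPM in osteoarthritic replicates 1 to 4. Replicates 2 and 3 were thus within the healthy range and replicates 1 and 4 were below all healthy libraries. Without replicates 2 and 3 the median of the 2 rRNAs was -0.71, against -0.25 with them.

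The tRNA features that fell, AY172581.7 and AY172581.10, are neighbours on the - strand between Mt-nd2 and Mt-co1, both of which are on the + strand. AY172581.7 (rn6, chromosome MT, bases 5256 to 5321) had 6.59, 8.13, 9.48 and 6.14 normalised CPM with coacervate, 5.63, 4.96, 6.2 and 5.63 with HA, 4.84, 2.45, 3.78 and 5.22 in osteoarthritic, and 8.37, 10.3, 7.62 and 11.8 in healthy libraries. The raw counts behind these were 99 to 240 in osteoarthritic and 295 to 549 in healthy libraries. The osteoarthritic values were all below the healthy ones, and the log2 difference was -1.22 ± 0.223 (SE, edgeR adjusted p = 0.0273), 2.33-fold lower. AY172581.10 (bases 5185 to 5252) had 4.67, 5.4, 6.34 and 4.11 normalised CPM with coacervate and 3.71, 3.41, 4.32 and 3.72 with HA. It had 3.29, 2.25, 3.26 and 3.92 normalised CPM in osteoarthritic and 5.66, 7.32, 5.24 and 7.99 in healthy libraries, again with no overlap. Its log2 difference was -1.04 ± 0.201 (edgeR adjusted p = 0.033), 2.06-fold lower.

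Both calls were lost in many of the alternative fits. Without osteoarthritic replicates 2 and 3, AY172581.7 differed by -0.92 (adjusted p = 0.0554) and AY172581.10 by -0.87 (adjusted p = 0.0869), and neither passed in the 2 groups fitted alone (adjusted p = 0.177 and 0.182). Leaving out healthy replicate 1, 2 or 4 or osteoarthritic replicate 3 also lost both calls, and leaving out osteoarthritic replicate 1 gave 7 features that passed. The direction held in every alternative, with log2 differences of -1.4 to -0.8 for AY172581.7 and -1.18 to -0.6 for AY172581.10.

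Relative to Mt-co1, both tRNA features were also lower in osteoarthritic than in healthy libraries. AY172581.7 had 0.491 to 0.577 counts per 1000 Mt-co1 counts with coacervate, 0.38 to 0.566 with HA, 0.297 to 0.432 in osteoarthritic and 0.615 to 0.754 in healthy libraries. AY172581.10 had 0.329 to 0.386, 0.262 to 0.395, 0.273 to 0.339 and 0.416 to 0.538 in the same order of groups. Its osteoarthritic values thus lay inside the HA range. These ratios were computed after the calls were seen and are given as a description. When libraries were scaled to their mitochondrial protein counts, an alternative chosen after seeing the data that moved the median of all genes by 0.442, AY172581.7 differed by -0.8 (adjusted p = 0.0229) and AY172581.10 by -0.6 (adjusted p = 0.0369). AY172581.14 (bases 2665 to 2739), on the + strand between AY172581.24 and Mt-nd1, then also passed, with -0.72 (adjusted p = 0.0359), against -1.16 ± 0.269 (adjusted p = 0.0715) in the fit scaled over all genes.

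The other 2 tRNA features of the - strand cluster were chosen for comparison after their values were seen. AY172581.22 had 5.98, 7.22, 8.28 and 4.42 normalised CPM in osteoarthritic and 8.8, 9.59, 6.56 and 11.2 in healthy libraries, and AY172581.18 had 8.63, 10.1, 11.7 and 6.73 against 12.9, 14.5, 9.84 and 17. Their log2 differences were -0.48 ± 0.216 (adjusted p = 0.261) and -0.55 ± 0.202 (adjusted p = 0.216). Their groups overlapped through osteoarthritic replicates 2 and 3, while replicates 1 and 4 lay below all healthy values. Without replicates 2 and 3 the log2 differences were -0.8 and -0.82, near the -0.87 of AY172581.10 and the -0.92 of AY172581.7. Each pair within the cluster kept a steady ratio in most libraries. AY172581.22 had 0.657 to 0.712 counts per AY172581.18 count in all 16 libraries. AY172581.10 had 0.659 to 0.75 counts per AY172581.7 count in 14 libraries, and 0.919 and 0.862 in osteoarthritic replicates 2 and 3. Between the pairs the ratio was lower in those replicates, with 0.241 and 0.323 AY172581.7 counts per AY172581.18 count, against 0.56 to 0.777 elsewhere. The 32 unannotated bases lie between these pairs.

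**Figure D3:**
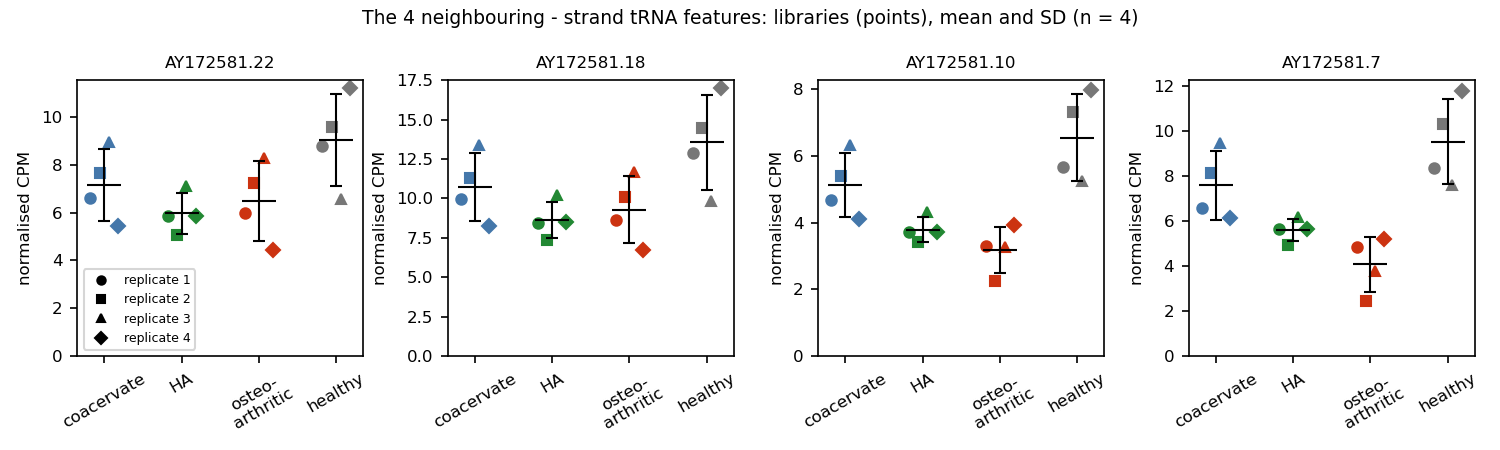
Normalised CPM of the 4 neighbouring - strand tRNA features between Mt-nd2 and Mt-co1, 1 point per library with the mean and SD (n = 4). AY172581.10 and AY172581.7 do not overlap between osteoarthritic (up to 3.92 and 5.22) and healthy libraries (from 5.24 and 7.62), while AY172581.22 and AY172581.18 do, through osteoarthritic replicates 2 and 3.

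Over all 20 tested tRNA features, 19 were below 0 in osteoarthritic against healthy cartilage, with a median log2 difference of -0.618, and 6 did not overlap between the groups, where 3.19% of all genes were lower with no overlap. AY172581.13 and AY172581.4, with a median of 3 counts, are among the 6. Leaving out osteoarthritic replicates 2 and 3, 16 of 20 were below 0 and the median was -0.549. Over all libraries, the - strand features all lay below 0 (8 of 8, median -0.639), as did 11 of 12 on the + strand (median -0.607). The highest tRNA feature by FPKM was AY172581.19, with a mean of 777 FPKM over the 16 libraries. It shares 3 bases with the end of Mt-co1 on the opposite strand, so its counts may include Mt-co1 reads if strand was not used. The lowest was AY172581.8, with 0.626 FPKM and 44 counts over all libraries. The 8 - strand features took 0.0101% of counts on average and the 14 + strand features 0.00214%. AY172581.19, on the - strand, alone held 46518 counts over all libraries, and the next highest tRNA feature, AY172581.15, held 8357. The - strand share and the share of all 22 tRNAs thus depend largely on AY172581.19.

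Within the osteoarthritic group the features did not move together. In replicates 2 and 3, 7 of 13 protein genes and 9 of 20 tRNA features lay below all of the other 14 libraries, where 19.7% of all tested genes did. The 7 were Mt-nd1, Mt-nd2, Mt-co1, Mt-nd4l, Mt-nd4, Mt-nd5 and Mt-cyb. Mt-co2, with 4020 and 4420 normalised CPM, lay beside the 3920 and 4560 of osteoarthritic replicates 1 and 4, and AY172581.22 and AY172581.18 were higher in replicates 2 and 3 than in replicates 1 and 4. Mt-nd1, Mt-co2, Mt-atp8 and Mt-cyb were below all healthy values in all 4 osteoarthritic libraries, and so by necessity in replicates 1 and 4. So were 6 tRNA features: AY172581.7, AY172581.10, AY172581.14, AY172581.2, and AY172581.13 and AY172581.4 with a median of 3 counts. Of all genes, 3.19% were lower with no overlap. Some other features were below all healthy values in replicates 1 and 4 only. Among these, Mt-nd3 had 233 and 227 normalised CPM (healthy from 243) and AY172581.9 had 334 and 311 (healthy from 396). The share of all genes for these 2 libraries was not computed. The haemoglobin share of replicate 1, 12%, was within the healthy range of 11.6% to 15.4%, and that of replicate 4, 9.57%, was below it.

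**Figure D4:**
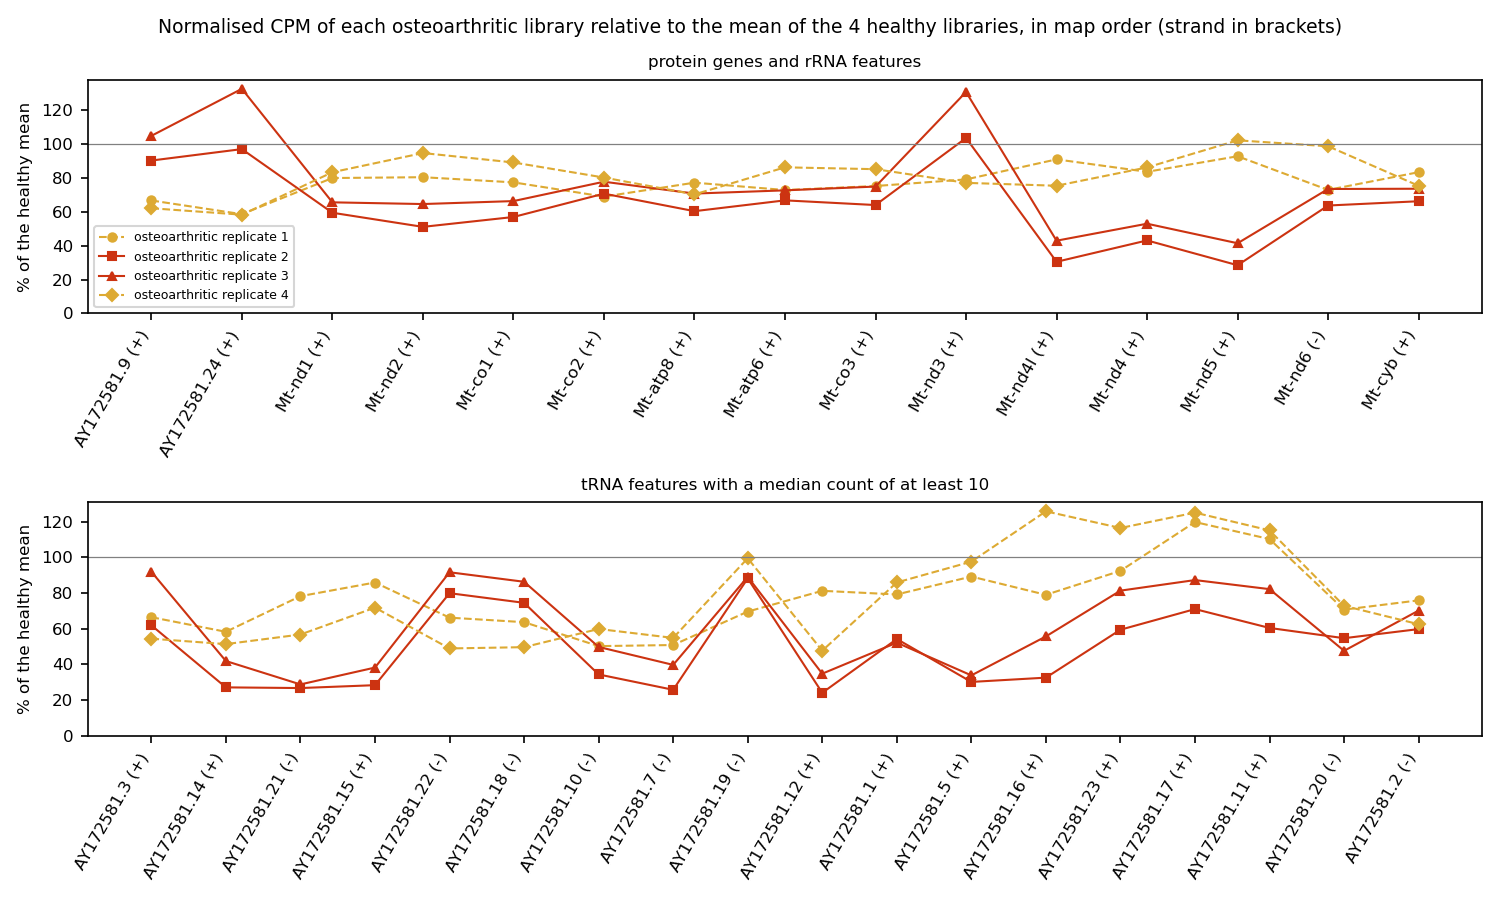
Normalised CPM of each osteoarthritic library as a percentage of the mean of the 4 healthy libraries, in map order, for protein genes and rRNA features (upper panel) and for tRNA features with a median count of at least 10 (lower panel). Replicates 2 and 3 (solid lines) lie above replicates 1 and 4 (dashed lines) for the rRNAs and Mt-nd3. For Mt-nd4l, Mt-nd4 and Mt-nd5 they lie below replicates 1 and 4. Mt-nd5 had 454 and 661 normalised CPM in replicates 2 and 3, against 1480 and 1630 in replicates 1 and 4.

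In the coacervate group the protein genes were mostly above the osteoarthritic group, but no mitochondrial feature passed the test. Of all tested genes, 21 passed (0.146%), and 21.8% had an unadjusted p under 0.05, as did 9 of the 13 protein genes. Of the protein genes, 12 of 13 were above 0, with a median log2 difference of 0.428, against -0.0101 for all genes, of which 51.2% were below 0. The exception was Mt-nd3, with -0.2 ± 0.17 (SE, adjusted p = 0.483). Mt-atp8 differed by 0.48 ± 0.168 (adjusted p = 0.148), Mt-cyb by 0.4 ± 0.142 (adjusted p = 0.152), Mt-nd1 by 0.43 ± 0.162 (adjusted p = 0.167) and Mt-nd4l by 0.69 ± 0.271 (adjusted p = 0.176). Normalised CPM of Mt-nd4l was 235 and 331 in osteoarthritic replicates 2 and 3, and 701 and 581 in replicates 1 and 4. With coacervate it was 745 ± 162 (SD, n = 4). Mt-nd1, Mt-co2, Mt-atp8, Mt-co3 and Mt-cyb did not overlap between the groups, where 2.47% of all genes lay higher with no overlap. Without osteoarthritic replicates 2 and 3 the median was 0.25, with 13 of 13 above 0.

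The tRNA features had a median log2 difference of 0.424 between coacervate and osteoarthritic cartilage, with 19 of 20 above 0 and 4 that did not overlap, the low-count AY172581.13 among them, where 2.47% of all genes lay higher with no overlap. The median was 0.248 without osteoarthritic replicates 2 and 3, with 15 of 20 above 0. AY172581.7 differed by 0.9 ± 0.222 (SE, adjusted p = 0.0975) and AY172581.10 by 0.69 ± 0.2 (adjusted p = 0.119). The rRNA features had a median of -0.22, which was 0.23 without osteoarthritic replicates 2 and 3, so their direction rests on those libraries. Some features passed under other choices: DESeq2 gave 4 features (AY172581.14, AY172581.10, AY172581.7 and Mt-cyb), and leaving out osteoarthritic replicate 1 or 4 gave 7 and 2. The osteoarthritic libraries are shared with the comparison against healthy cartilage, so the 2 comparisons are not independent.

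In the HA group no feature passed against osteoarthritic cartilage, and neither did any of the 14337 tested genes (0%; 909 or 6.34% had an unadjusted p under 0.05, and none of the mitochondrial features did; DESeq2 passed no mitochondrial feature). The median log2 difference was 0.152 for the protein genes, -0.18 for the rRNAs and 0.12 for the tRNAs, while 52.2% of all genes were below 0. The groups overlapped for all but 1 of the 35 tested features, the low-count AY172581.13, where 1.08% of all genes were higher with no overlap. Without osteoarthritic replicates 2 and 3 the medians were -0.00705, 0.268 and -0.0449, so each class changed sign.

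**Figure D5:**
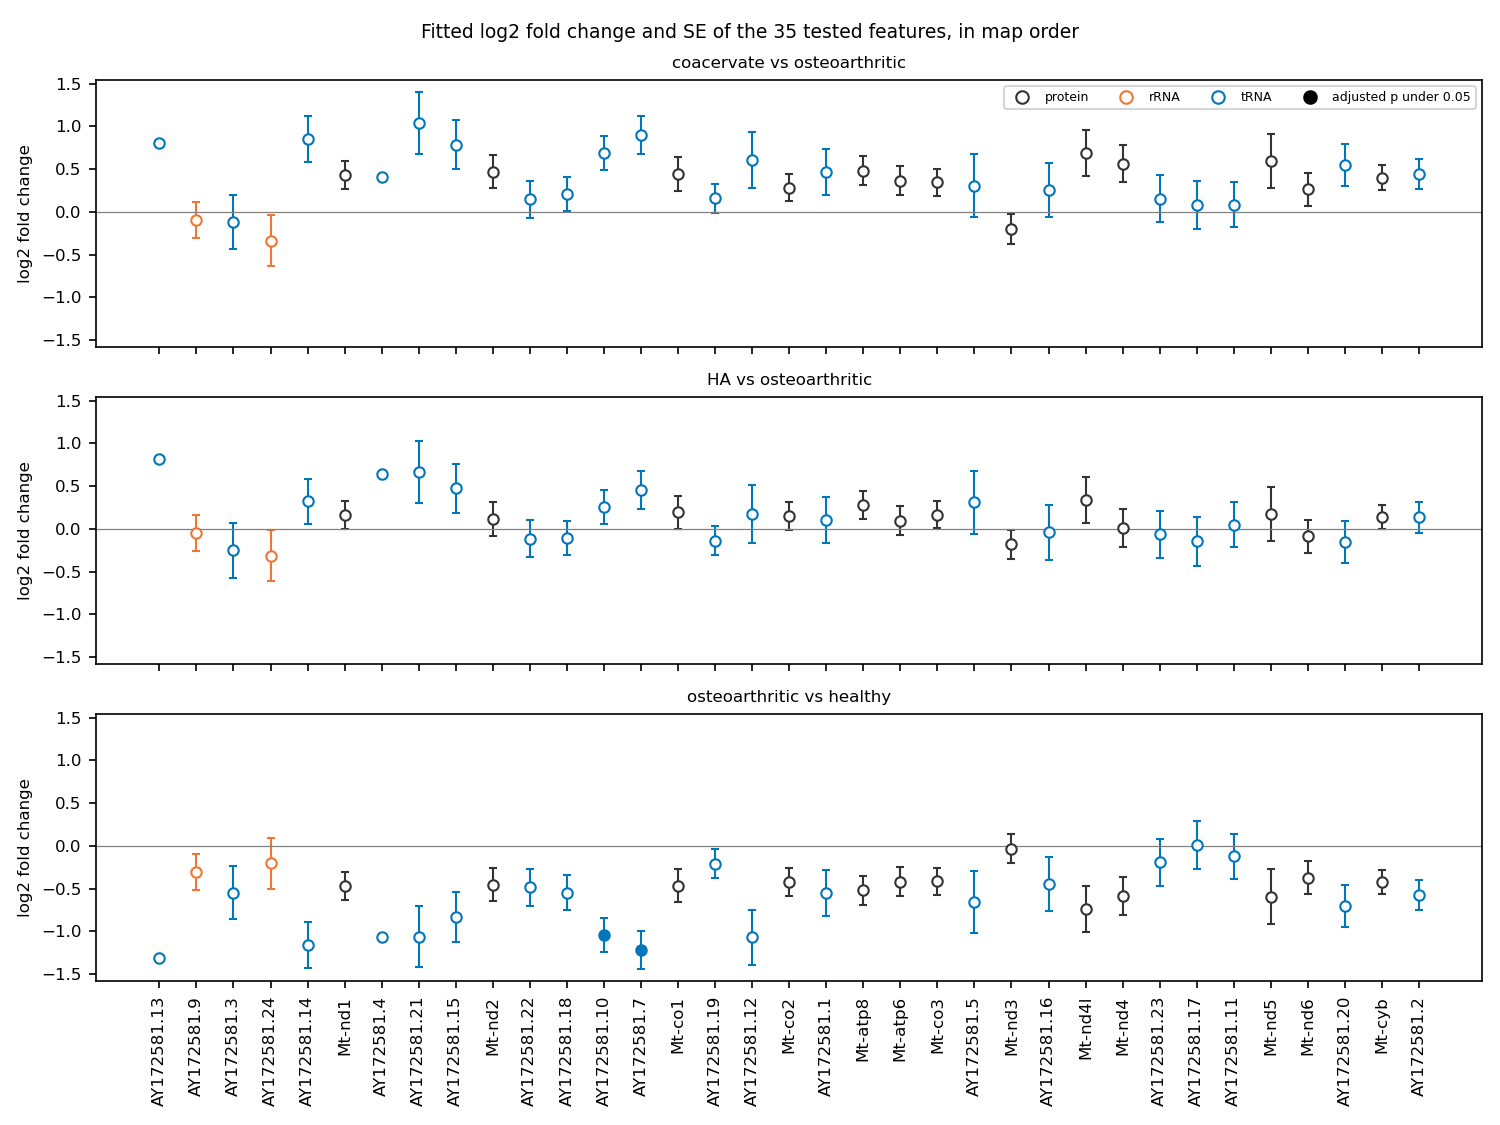
Fitted log2 fold change with SE for the 35 tested features in map order, for coacervate against osteoarthritic, HA against osteoarthritic and osteoarthritic against healthy cartilage (SE not drawn for the 2 features with a median of 3 counts). Filled points passed the test, which were AY172581.10 (-1.04) and AY172581.7 (-1.22) in osteoarthritic against healthy cartilage.

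Coacervate and HA, the 2 carriers, gave no mitochondrial feature that passed when set against each other, and no gene of any kind did (0%; 1485 or 10.4% had an unadjusted p under 0.05). With osteoarthritic replicates 2 and 3 left out of the shared fit, 23 genes passed as higher (0.16%) and 126 as lower (0.879%), with no mitochondrial feature among them. By DESeq2 no mitochondrial feature passed either. The median log2 difference, coacervate minus HA, was 0.266 for the protein genes, with 12 of 13 above 0 where 50.3% of all genes were below 0. It was -0.0397 for the rRNAs and 0.304 for the tRNAs. Mt-nd4 had 0.55 ± 0.218 (SE, adjusted p = 0.365) and was the one protein gene whose groups did not overlap, against 4.35% of all genes higher with no overlap. It had 1089, 1459, 1275 and 989 FPKM with coacervate and 721, 850.2, 867 and 918 FPKM with HA.

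Against healthy cartilage, no mitochondrial feature passed in the HA group, where 23 genes did (0.16%; 1183 or 8.25% had an unadjusted p under 0.05). All 13 protein genes were below 0 (median -0.309), as were both rRNAs (median -0.434) and all 20 tRNAs (median -0.467), where 49.6% of all genes were. AY172581.10 differed by -0.79 ± 0.199 (SE, adjusted p = 0.156) and AY172581.7 by -0.76 ± 0.22 (adjusted p = 0.266), both with no overlap. Mt-nd4 (-0.58 ± 0.218, adjusted p = 0.463) also did not overlap. By class, 4 of 20 tRNA features and 1 of 13 protein genes were lower with no overlap, where 4.76% of all genes were. Both tRNA features passed when the 2 groups were fitted alone, and AY172581.10 passed with DESeq2.

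In the coacervate group no feature passed against healthy cartilage, nor did any gene (0%; 552 or 3.85% had an unadjusted p under 0.05, 1 mitochondrial feature among them, and DESeq2 passed no mitochondrial feature). The median log2 difference was -0.0432 for the protein genes, -0.25 for the tRNAs and -0.474 for the rRNAs, where 48.9% of all genes were below 0. AY172581.24 was the one feature whose values lay below all healthy values, at 702 ± 87.8 normalised CPM against 1020 ± 328 (SD, n = 4), where 1.91% of all genes were lower with no overlap. With adjusted p-values of 1 for the protein genes, levels in these groups are not shown to be alike: the SE of Mt-co1 was 0.196 on the log2 scale.

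The nuclear genes of the same complexes were mostly above 0 between osteoarthritic and healthy cartilage. Of 73 tested subunit genes of complexes I to V, 70 were above 0, with a median log2 difference of 0.4, and none passed the test. Without osteoarthritic replicates 2 and 3 the direction turned: 72 of 73 were below 0, with a median of -0.201, where 53.3% of all genes were below 0 (median -0.0196). In that fit Atp5mc3, a subunit of the ATP synthase ring, passed as lower (log2 difference -0.41, edgeR adjusted p = 0.0475), where 0.0907% of all genes did. The cytosolic ribosomal protein genes turned likewise, with a median of 0.487 over all libraries and -0.275 without these 2. There were 2.86 and 3.48 mitochondrial protein counts per nuclear complex I to V count in osteoarthritic replicates 2 and 3, 7.46 and 8.1 in replicates 1 and 4, and 7.19 to 10.5 in healthy libraries. In the coacervate and HA groups this ratio was 6.7 to 9.84 and 6.25 to 6.95. In coacervate against osteoarthritic cartilage, 67 of 73 nuclear genes were below 0 (median -0.438), and without replicates 2 and 3 all 73 were above 0 (median 0.221).

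Of 15 nuclear genes of mitochondrial transcription and DNA maintenance, such as the mitochondrial RNA polymerase, none passed in osteoarthritic against healthy cartilage, and their median log2 difference was 0.142, or -0.0225 without osteoarthritic replicates 2 and 3. Of 29 genes of mitochondrial RNA processing, stability and tRNA modification none passed, with a median of 0.0768. Without these 2 libraries that median was -0.0557, and 1 of the 29 passed as higher, Ptcd3 (log2 difference 0.73, edgeR adjusted p = 0.0475), where 1.05% of all genes did. Of 11 tested regulators of mitochondrial biogenesis none passed, with a median of -0.0638, or -0.0647 without the 2 libraries. In the other 5 comparisons none of the genes of these 3 lists passed, with or without these libraries.

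The 11 skeletal muscle genes took 0.625% to 2.09% of counts with coacervate, 0.438% to 0.523% with HA, 0.35% to 0.668% in osteoarthritic and 0.647% to 0.96% in healthy libraries. Of these genes, 10 of 11 were below 0 in osteoarthritic against healthy cartilage (median -0.534), and 11 of 11 were above 0 in coacervate against osteoarthritic cartilage (median 0.891). These medians were -0.584 and 1.04 without osteoarthritic replicates 2 and 3, with 11 of 11 below 0 and 11 of 11 above 0. In HA against osteoarthritic cartilage 8 of 11 were below 0 (median -0.218), where the mitochondrial protein genes had a median of 0.152; without osteoarthritic replicates 2 and 3 these medians were -0.173 and -0.00705. In coacervate against HA all 11 were above 0 (median 1.05), where the protein genes had a median of 0.266. Against healthy cartilage all 11 were below 0 with HA (median -0.73), as were all 13 protein genes, and all 11 were above 0 with coacervate (median 0.43), where 12 of the 13 protein genes were below 0. None of the 11 passed the test in any of these comparisons. All 11 were detected above 1 FPKM in all 16 libraries. Muscle fibres are rich in mitochondria; the part of muscle RNA, and that of the haemoglobin share in osteoarthritic replicates 2 and 3, in these differences was not tested.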

How the data were processed

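Per the labels' protocols, poly(A) RNA of rat knee cartilage was made into strand-marked (dUTP) libraries and sequenced in pairs on a NovaSeq. Raw counts per gene were deposited by the authors, and FPKM values were deposited by the authors beside them. Per the submitters' processing notes, the build was rn6, and cutadapt 1.9, HISAT2 2.2.1, StringTie 2.1.6, DESeq2 and edgeR were used, with no role given; the counter, its strand setting and the annotation version are not given in the sources used here.

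Counts as deposited were fitted with edgeR 4.0.16 (glmQLFit, glmQLFTest, TMM scaling) in 1 model of 4 groups and 16 libraries, with 6 comparisons. Genes with at least 1 FPKM in at least 4 libraries entered (14337 of 23552), and p-values were adjusted over all of them (Benjamini-Hochberg, threshold 0.05). Library totals were 36988722 to 50725189; shares have their SD over libraries. Alternatives were other scalings and filters, DESeq2 1.42.0, limma 3.58.1 on log2(FPKM + 1) and log2(FPKM + 0.1), libraries left out, 2 groups alone and the replicate number as a block. No pair of libraries agreed within sampling noise. Protein genes and rRNAs are named with values; tRNA features with full statistics where they passed, and others named are stated as chosen afterwards. The members and all gene lists were chosen with earlier results of these data known. Mitochondrial sequences were not used here.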

Additional observations from a re-analysis of the deposited data

Results flagged for a closer look

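In 3 of 152 groups of 4 libraries, 1 library lay far from the other 3, where chance flags about 1 in 20 groups. AY172581.1 had 0.837 normalised CPM in coacervate replicate 2, against 0.569 to 0.587 in the other coacervate libraries. AY172581.13 had 0.103 in HA replicate 3, against 0.0602 to 0.0645 in the other HA libraries, and AY172581.4 had 0.171 in healthy replicate 4, against 0.0641 to 0.0775 in the other healthy libraries. The last 2 features have a median of 3 counts a library.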

How the results depend on the processing

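The 2 features that passed in osteoarthritic against healthy cartilage became 0 with scaling to total counts, with limma on either pseudocount, in the 2 groups alone, without osteoarthritic replicates 2 and 3, and without these and healthy replicate 4, and 5 with DESeq2. Leaving out each library in turn gave 0 to 7. In coacervate against osteoarthritic cartilage, where 0 passed, DESeq2 gave 4, scaling to mitochondrial protein counts 1 (Mt-nd3, -0.65, adjusted p = 0.0358), and leaving out each library 0 to 7. In HA against healthy cartilage, where 0 passed, DESeq2 gave 1 and the 2 groups alone 2. Scaling to total counts moved the median of all genes by -0.1 in osteoarthritic against healthy cartilage and by 0.118 in HA against osteoarthritic cartilage. The causes were not tested.

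With the replicate number as a block, 0 features passed in osteoarthritic against healthy cartilage (AY172581.7 adjusted p = 0.074, AY172581.10 adjusted p = 0.086). Libraries with the same number did not deviate together: 4 of 24 correlations were over 0.1 (range -0.386 to 0.211), so the number is not shown to pair them.

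Without haemoglobin in the denominator, the protein share was 5.42% with coacervate and 4.58% with HA, the rRNA share 0.125% with coacervate, and the tRNA share 0.0123% with HA and 0.0119% in osteoarthritic cartilage. As a share of summed FPKM, the protein genes took 8.02%, 7.07%, 5.58% and 8.22%, and the tRNAs 0.272%, 0.225%, 0.196% and 0.296%, in the coacervate, HA, osteoarthritic and healthy groups. Over all libraries, the order of the groups by mean protein share was the same in all 3 ways. As a share of all counts, the osteoarthritic libraries of another composition held 2.42% and 2.92%. The other osteoarthritic libraries, with 3.95% and 4.27%, lay inside the HA range of 3.62% to 4.44%. The place of the osteoarthritic group below HA in this share thus rests on the libraries of another composition.

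Counts limit the tRNA features most: AY172581.7 and AY172581.10 had 91 to 549 counts a library, and AY172581.13 and AY172581.4 a median of 3.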
